A study of Mus musculus with 16 samples.

Results

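Messenger RNA of 4 genes that buffer and export zinc, the metallothionein genes Mt1 and Mt2, the metal-responsive transcription factor gene Mtf1 and the zinc exporter gene Slc30a1, was followed in mouse kidney cells given an Nrf2 activator and then hyperosmotic stress. The 4 genes were taken by symbol from the 55367 genes counted, and all 4 were among the 19509 genes that passed the filter on low counts, Mt2 on counts that did not exceed 34 in any library. Slc30a1 fell 4.08-fold with the activator alone and 4.85-fold after 1 h of stress alone, and with both it averaged 7.75 CPM (counts scaled to the size of the library), against 7.77 CPM with the stress alone. Mt1 was 3.76-fold lower with the activator, a difference that kept its direction in all 13 alternative settings but passed in 5 of them and not in the edgeR fit of all 16 libraries. Mtf1 rose after 6 h of stress, while its smaller difference at 1 h passed only in some subsets of the libraries, and Mt2 was close to the limit of detection.

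Zinc is needed by many proteins and is harmful when too much of it is free in the cell. Metallothioneins, encoded by Mt1 and Mt2, are small cysteine-rich proteins that bind zinc and copper and also react with electrophiles and oxidants. Slc30a1 (ZnT1) lies in the plasma membrane and moves zinc out of the cell, and MTF-1, the product of Mtf1, is activated when free zinc rises and binds metal response elements in the promoters of Mt1, Mt2 and Slc30a1.

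The cells were mIMCD3, a line from the inner medullary collecting duct of the mouse kidney. They received 10 µM sulforaphane (SFN), an electrophile that releases the transcription factor Nrf2 from its inhibitor Keap1, or its solvent DMSO for 5 h, and were then sampled without stress (isosmotic) or after 1 or 6 h in 600 mOsm medium. There were 8 groups of 2 RNA-seq libraries each. WT cells were studied with DMSO and with SFN at all 3 stages, and Nrf2-/- cells only with SFN, isosmotic and after 1 h of stress, so every Nrf2-/- value was measured in SFN-treated cells. The Nrf2-/- cells were 1 line made with lentiviral Cas9 and guide RNA under blasticidin and puromycin selection, treatments that the WT cells are not stated to have had. Nrf2-/- cells with DMSO were not analysed here. Each combination of genotype and pretreatment had 1 isosmotic group, which was the reference for every stress time. Stress therefore cannot be told apart from the change of medium or from time since the pretreatment.

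The libraries held 34484296 to 50774875 counts. Nfe2l2, the gene for Nrf2, averaged 11.4 ± 0.361 CPM (SD, n = 2) in isosmotic Nrf2-/- cells against 72.4 ± 7.83 in WT cells with SFN. Srxn1, a known Nrf2 target, rose from 82.1 ± 0.723 to 206 ± 8.55 CPM with SFN in isosmotic WT cells. Of 12 markers of the collecting duct and of epithelium, 9 averaged at least 1 CPM, among them Krt8 and Krt18, but Aqp2, Aqp3 and Avpr2, which define the vasopressin-responsive principal cell, stayed at or below 0.821 CPM in every library. Levels varied, as for Pax2 with 23.6 to 1146 CPM. Of the 11 markers tested, 6 had an edgeR adjusted p under 0.05 between Nrf2-/- and WT cells with SFN, both isosmotically and at 1 h. Of all genes, 34.1% and 31.5% did. The summed CPM of short marker lists for proximal tubule, fibroblasts, immune cells and endothelium was 27.5 or less in every library, against 1786 to 4071 for the 12 markers. In bulk RNA, fewer cells that express a gene and less RNA per cell cannot be told apart. The 2 libraries of Nrf2-/- cells after 1 h of stress stood apart from each other: the biological coefficient of variation between them was 0.348, against 0.0393 to 0.128 for the other 7 pairs.

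Windows before the annotated starts are shown because MTF-1 and Nrf2 act on their target genes through short elements in promoters. Each sequence is the 250 bases before the RefSeq start in GRCm38.p6, 5′ to 3′ on the + strand that carries the gene, and capitals mark matches to the core of the metal response element, searched on both strands as TGCACNC and TGCGCNC.
Mt1 (chr8:94178839-94179088): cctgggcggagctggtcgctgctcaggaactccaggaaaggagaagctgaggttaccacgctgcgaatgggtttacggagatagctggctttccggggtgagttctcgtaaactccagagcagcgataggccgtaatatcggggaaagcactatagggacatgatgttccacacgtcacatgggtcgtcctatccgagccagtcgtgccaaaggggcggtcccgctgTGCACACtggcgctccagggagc
Mt2 (chr8:94172368-94172617): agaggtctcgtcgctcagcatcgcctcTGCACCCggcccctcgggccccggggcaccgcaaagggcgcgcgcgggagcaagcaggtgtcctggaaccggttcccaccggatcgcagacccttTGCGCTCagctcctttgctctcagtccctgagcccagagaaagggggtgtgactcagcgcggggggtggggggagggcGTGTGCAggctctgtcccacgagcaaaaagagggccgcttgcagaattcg
Slc30a1 (chr1:191906531-191906780): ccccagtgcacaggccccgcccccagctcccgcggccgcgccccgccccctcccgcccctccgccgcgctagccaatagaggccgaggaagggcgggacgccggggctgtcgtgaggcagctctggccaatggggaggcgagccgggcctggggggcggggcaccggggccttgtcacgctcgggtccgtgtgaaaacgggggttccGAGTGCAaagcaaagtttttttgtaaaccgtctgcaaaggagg

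The Mt2 window held 3 matches to the metal response core, and the Mt1 and Slc30a1 windows held 1 each. In the mouse promoter set of 32851 windows of this length, 21.4% held at least 1 match and 1.26% held at least 3. The Mtf1 window held 0. The antioxidant response core, the element of Nrf2, was searched on both strands in the loose form TGANNNNGC, with any base at N. Stricter forms were not searched, so a match need not be a site that Nrf2 can bind. This loose core had 2 matches in the Slc30a1 window, 2 in that of Mtf1, 1 in that of Mt2 and 0 in that of Mt1. Of all windows, 35.2% held at least 1. No match to this core overlapped a match to the other. The matches describe the letters only. Each window was set by 1 annotated start per gene, so elements outside it were not searched and low match counts are not evidence of their absence. The Mt1 window ended at the outer edge of the annotated Mt1 gene. Elements that serve a start further inside the gene would lie outside this window. The match counts of Mt1 and Mt2 are therefore not compared.

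Mt1 (ENSMUSG00000031765.8) and Mt2 (ENSMUSG00000031762.7) lie 5513 bases apart on chromosome 8 of GRCm38, at chr8:94179082-94180327 and chr8:94172664-94173568, both on the + strand. Their coding sequences have 186 bases each, of which 148 are identical (79.6%), but their transcripts share no stretch of 50 bases. Mt2 is instead covered by another annotated gene. Of its 588 exon bases, 432 (73.5%) are also exon of Gm45774, an antisense gene on the − strand, so that with counting that ignores strand most Mt2 reads could be assigned to either gene or to none. Whether strand was used in counting is not given in the sources used here. Gm45774 had 0 counts in 15 libraries and 8 in 1 of them, isosmotic WT cells with DMSO. The part of this overlap in the low Mt2 counts was not tested. Mtf1 (ENSMUSG00000028890.13, chr4:124802104-124849800) shares 8.09% of its exon bases with 1110065P20Rik on the other strand, and Slc30a1 (ENSMUSG00000037434.7, chr1:191906767-191913247) shares 8.92% with the antisense gene 1700034H15Rik, which had 10 to 45 counts.

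**Figure D1:**
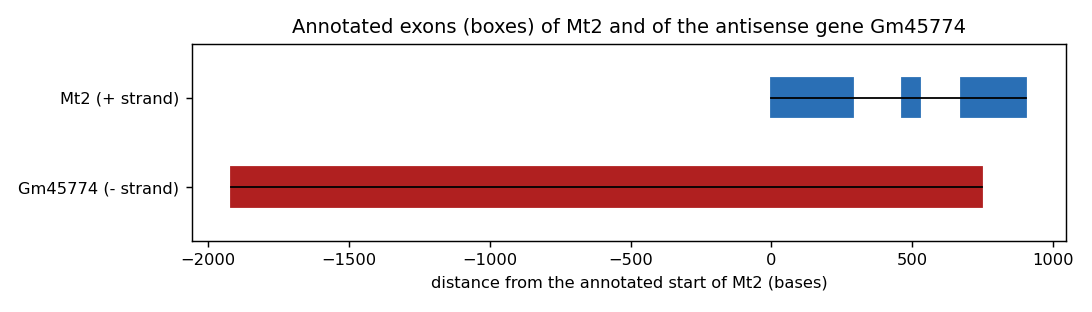
Exons of Mt2 (blue boxes, + strand) and of the antisense gene Gm45774 (red box, − strand) by distance in bases from the annotated start of Mt2, with lines for the gene spans. The single exon of Gm45774 runs from position -1916 to 748 and leaves only the end of the last Mt2 exon, 156 bases, uncovered.

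Differences were tested with edgeR's quasi-likelihood test in 1 fit of all 16 libraries, and a gene passed at a Benjamini-Hochberg adjusted p under 0.05 over all genes tested. With SFN, 1 of the 4 genes passed in isosmotic WT cells, where 2.84% of all genes did. With SFN after 1 h of stress 0 of the 4 passed with edgeR and with DESeq2, against 0.0923% of all genes with edgeR, and 0 of the 4 had an unadjusted p under 0.05. After 6 h the count was again 0 with both tools against 0.041% of all genes, and 1 gene, Mt2, had an unadjusted p under 0.05. The difference with stress in DMSO-treated WT cells passed for 1 gene at 1 h (11.2% of all genes), for 3 genes at 6 h (45.9%) and for 3 genes between 1 and 6 h (42.4%).

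In SFN-treated WT cells 0 of the 4 genes passed at 1 h with edgeR and with DESeq2, where 9.52% of all genes did with edgeR and 1 of the 4, Mt2, had an unadjusted p under 0.05. The counts were 3 genes at 6 h (47.6% of all genes) and 2 genes between 1 and 6 h (42.6%). Between Nrf2-/- and WT cells with SFN, 3 genes passed isosmotically (34.1%) and 2 after 1 h of stress (31.5%). In Nrf2-/- cells 0 genes passed between 1 h of stress and isosmotic medium with edgeR and with DESeq2, against 7.17% of all genes, and Mt2 had an unadjusted p under 0.05. The libraries of the 2 groups did not overlap for 3 of the 4 genes with SFN in isosmotic cells, at 1 h and at 6 h, as for 48.3%, 43.1% and 41% of all genes. With DMSO they did not overlap for 3 genes between 1 h and isosmotic medium (60.9%) and for 4 genes both between 6 h and isosmotic medium (75.6%) and between 6 and 1 h (78.2%). With SFN the numbers were 4 (56.6%), 4 (76.3%) and 2 genes (78.1%). Between genotypes they were 3 genes isosmotically (66.2%) and 2 at 1 h (59%), and within Nrf2-/- cells 0 genes (37%). The shares of all genes at 6 h and between genotypes were large, and the counts of 4 genes there are read as descriptions only. Many of these comparisons share libraries: the isosmotic DMSO libraries are the reference both for SFN and for stress in DMSO-treated cells.

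The zinc exporter Slc30a1 had 40.9 and 34.7 CPM in the 2 libraries of isosmotic WT cells with DMSO. With SFN it had 9.41 and 9.12 CPM. Both SFN libraries were far below both DMSO libraries and close to each other. The log2 fold change was -2.03 (SE 0.18, edgeR quasi-likelihood adjusted p = 1.59e-05), with a 95% interval of -2.42 to -1.64. Across the 13 alternative settings tried, this log2 fold change ranged from -2.14 to -1.90 and passed the test in all 13.

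Slc30a1 in WT cells was also lower after hyperosmotic stress without SFN. After 1 h the DMSO libraries had 8.98 and 6.57 CPM, and after 6 h they had 18.7 and 17.6 CPM. The libraries of the 3 stages did not overlap: the level was highest before stress, lowest at 1 h, and between these at 6 h. Against isosmotic cells, the log2 fold change was -2.28 (SE 0.19, edgeR adjusted p = 2.84e-06) at 1 h and -1.06 (SE 0.18, adjusted p = 0.000205) at 6 h. From 1 to 6 h Slc30a1 rose by a log2 fold change of 1.22 (SE 0.18, edgeR adjusted p = 8.05e-05).

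In SFN-treated WT cells, which began low, Slc30a1 had 7.61 and 7.89 CPM after 1 h of stress and 18.4 and 15.6 CPM after 6 h. The 1 h libraries lay just under the isosmotic SFN libraries, and the 6 h libraries lay above all 4 of them. The 1 h difference did not pass the test (log2 fold change -0.26, 95% interval -0.65 to 0.14, edgeR adjusted p = 0.496). Against isosmotic SFN-treated cells the 6 h level had risen by a log2 fold change of 0.88 (SE 0.18, edgeR adjusted p = 0.00108), and against the 1 h level by 1.13 (SE 0.18, adjusted p = 0.00016). Stress for 6 h therefore went with a lower Slc30a1 level than before stress in DMSO-treated cells and with a higher one in SFN-treated cells.

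The SFN difference itself depended on the stage. At 1 h it was -0.01 on the log2 scale (95% interval -0.40 to 0.39), and at 6 h it was -0.09 (95% interval -0.47 to 0.29), with SFN and DMSO libraries overlapping at both times. The interaction, which is the SFN difference under stress minus that in isosmotic cells, was 2.02 (SE 0.26, edgeR adjusted p = 0.0013) at 1 h, where 0.559% of all genes passed. At 6 h it was 1.93 (SE 0.25, adjusted p = 0.00113), where 0.759% of all genes passed. Slc30a1 was the 1 gene of the 4 that passed in each of these interactions, and both passed in all 17 alternative settings. Both interactions and the fall with stress rest on the same 2 isosmotic DMSO libraries, and they stayed past the threshold when either of these was left out.

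Slc30a1 was higher in Nrf2-/- cells than in WT cells with the same SFN treatment. Isosmotic Nrf2-/- cells had 22.9 and 21.0 CPM, and after 1 h of stress they had 16.5 and 23.3 CPM. All 4 Nrf2-/- libraries lay above all 4 WT libraries with SFN at these stages, and below both isosmotic DMSO libraries of WT cells. The log2 fold change against WT was 1.24 (SE 0.18, edgeR adjusted p = 8.35e-05) in isosmotic cells and 1.36 (SE 0.18, adjusted p = 4.73e-05) at 1 h. From isosmotic medium to 1 h of stress, Slc30a1 in Nrf2-/- cells differed by -0.14 on the log2 scale (95% interval -0.52 to 0.24, adjusted p = 0.732). This 1 h difference was not shown to differ from that of WT cells with SFN (interaction 0.11, 95% interval -0.43 to 0.66, edgeR adjusted p = 1). In that interaction 0 of the 4 genes passed with edgeR and with DESeq2, 0 had an unadjusted p under 0.05, and 0.123% of all genes passed with edgeR.

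By mean CPM, Slc30a1 ran from 37.8 in isosmotic DMSO cells through 21.9 in isosmotic and 19.9 in 1 h Nrf2-/- cells, 18.1 in DMSO and 17.0 in SFN cells at 6 h, 9.26 in isosmotic SFN cells, and 7.77 in DMSO and 7.75 in SFN cells at 1 h. In this order the libraries of the first and second group, of the SFN cells at 6 h and isosmotic, and of the isosmotic SFN and 1 h DMSO cells did not overlap, and those of the other neighbours did. The levels thus fell into a single high group, a middle range of 15.6 to 23.3 CPM and a low range of 6.57 to 9.41 CPM.

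**Figure D2:**
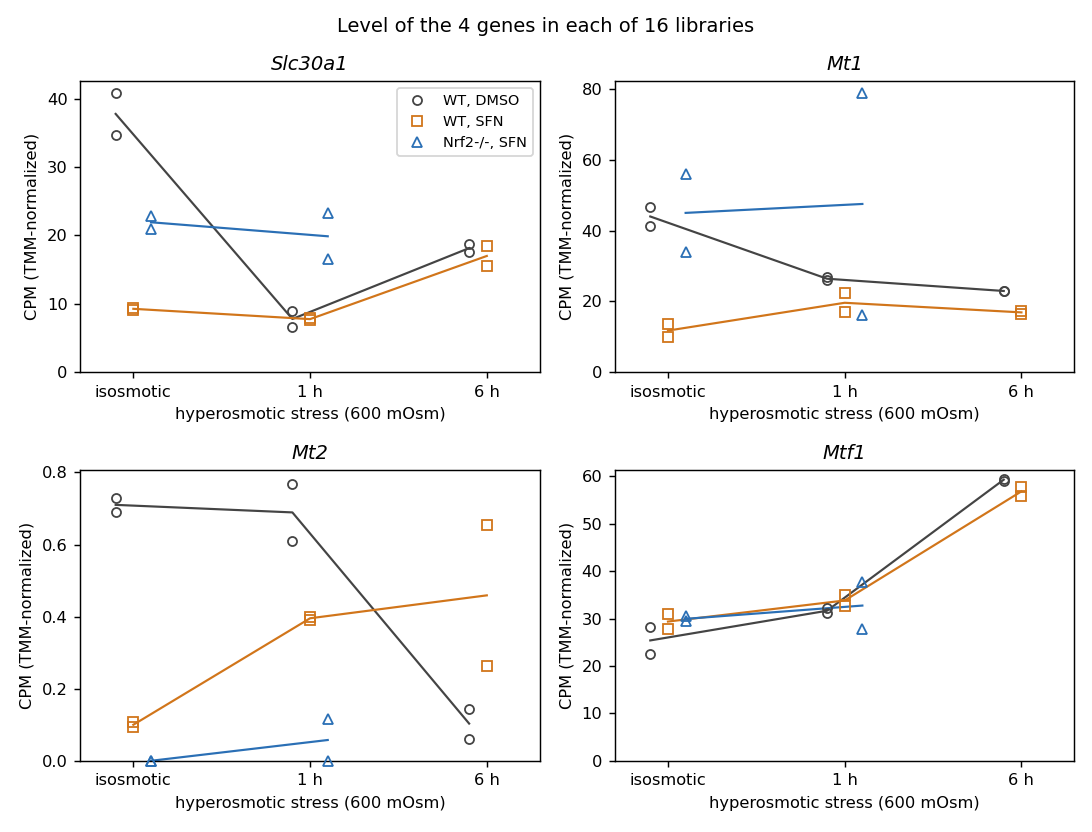
CPM of Slc30a1, Mt1, Mt2 and Mtf1 (y axis from 0) in isosmotic cells and after 1 and 6 h of hyperosmotic stress, 1 point per library, for WT cells with DMSO (circles), WT cells with SFN (squares) and Nrf2-/- cells with SFN (triangles), with lines through the group means. Slc30a1 starts at 34.7 and 40.9 CPM with DMSO and at 9.12 and 9.41 with SFN and has converged by 1 h, Mtf1 rises at 6 h in both, and the 2 Mt1 libraries of Nrf2-/- cells at 1 h lie at 16.2 and 78.9 CPM.

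Mt1, the metallothionein gene with nearly all of the metallothionein counts, had 41.4 and 46.6 CPM in isosmotic DMSO cells and 13.5 and 9.93 CPM in isosmotic SFN cells. The SFN libraries lay below the DMSO libraries without overlap. The log2 fold change was -1.91 (SE 0.55, edgeR adjusted p = 0.112), with a 95% interval of -3.13 to -0.69, and did not pass the test. The spread that the fit used for Mt1 included the Nrf2-/- cells at 1 h, where 1 library had 78.9 CPM and the other 16.2, a 4.86-fold difference between replicates. In the other groups the replicates of Mt1 differed by 1.01- to 1.64-fold. Fitted on the 12 WT libraries alone, the log2 fold change of Mt1 with SFN was -1.90 (SE 0.14, edgeR adjusted p = 6.13e-09), and without the 2 divergent libraries it was -1.92 (adjusted p = 6.88e-05). It also passed with DESeq2 across all libraries (-1.89, adjusted p = 0.0176). Leaving out the 2 divergent libraries was chosen after seeing the data. Of the 13 alternative settings only 5 passed, and over all 13 the log2 fold change ranged from -2.14 to -1.70.

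Under stress without SFN, Mt1 had 26.0 and 26.8 CPM at 1 h and 22.8 and 23.0 CPM at 6 h. Each stage lay below the one before it. In the fit of all libraries neither difference from isosmotic cells passed (log2 fold change -0.74 at 1 h, edgeR adjusted p = 0.465, and -0.94 at 6 h, adjusted p = 0.181). In the 12 WT libraries alone both passed, at -0.72 (edgeR adjusted p = 0.000493) and -0.92 (adjusted p = 5.98e-06).

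With SFN the isosmotic stage was the lowest rather than the highest. Mt1 had 16.9 and 22.3 CPM at 1 h and 17.2 and 16.6 CPM at 6 h, all above the isosmotic SFN libraries and all below the DMSO libraries of the same stage. The changes from isosmotic SFN cells were 0.74 at 1 h and 0.53 at 6 h on the log2 scale and did not pass in the fit of all libraries (edgeR adjusted p = 0.518 and 0.457). In the 12 WT libraries they were 0.75 (edgeR adjusted p = 0.000671) and 0.54 (adjusted p = 0.00238), and the interactions of SFN with 1 and 6 h of stress were 1.47 (adjusted p = 5.27e-05) and 1.46 (adjusted p = 5.62e-05), but in all 16 libraries these interactions did not pass (1.48, adjusted p = 0.717, and 1.47, adjusted p = 0.646).

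In Nrf2-/- cells with SFN, Mt1 had 34.1 and 55.9 CPM in isosmotic medium. Both libraries lay above both WT libraries with SFN, and they enclosed the level of WT cells with DMSO. The log2 fold change against WT cells with SFN was 1.94 (SE 0.55, edgeR adjusted p = 0.0195), and it did not pass when either WT library or the higher Nrf2-/- library was left out (log2 fold change 1.54 to 2.17, edgeR adjusted p = 0.0781 to 0.133). At 1 h the difference of 1.28 (edgeR adjusted p = 0.0994) came from 1 library. Without the Nrf2-/- library of 78.9 CPM it was -0.26 (edgeR adjusted p = 0.492), and without the one of 16.2 CPM it was 2.01 (adjusted p = 8.79e-05), so its direction depended on which library was kept. The 1 h change within Nrf2-/- cells depended on it in the same way, at -1.48 (adjusted p = 0.00254) without the first and 0.81 (adjusted p = 0.0406) without the second.

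Mt2 had 29 and 33 counts in isosmotic DMSO cells, 34 and 23 after 1 h of stress, and 5 and 2 after 6 h. In SFN-treated WT cells the counts were 4 and 5, then 15 and 16, then 9 and 21. Nrf2-/- cells with SFN had 0 and 0 counts in isosmotic medium and 0 and 4 after 1 h. Within WT cells the 2 pretreatments moved in opposite directions between isosmotic medium and 6 h, down with DMSO and up with SFN, without overlap between the stages.

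The fall of Mt2 in DMSO-treated cells was -2.73 on the log2 scale from isosmotic medium to 6 h (SE 0.85, edgeR adjusted p = 0.0176) and -2.69 from 1 to 6 h (SE 0.85, adjusted p = 0.0207). The first call was lost without the isosmotic library of 33 counts or the 6 h library of 2, and the second without the 1 h library of 34 counts or either 6 h library (highest adjusted p = 0.122 and 0.14). The rise in SFN-treated cells from isosmotic medium to 6 h was 2.17 (SE 0.84, edgeR adjusted p = 0.0484), and without the 6 h library of 21 counts it was 1.37 and did not pass (adjusted p = 0.335). It also did not pass without either isosmotic library (adjusted p = 0.128 and 0.181) or with the replicate number as a block (adjusted p = 0.067). The interaction between SFN and 6 h was 4.90 (SE 1.2) and did not pass in all 16 libraries (edgeR adjusted p = 0.106), but it passed in the 12 WT libraries (4.89, adjusted p = 0.00712). The SFN difference of Mt2 in isosmotic cells, -2.80 (SE 0.83), had the same outcome: it did not pass in all 16 libraries (adjusted p = 0.102), and in the 12 WT libraries it was -2.78 (adjusted p = 0.0103).

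Between genotypes, Mt2 was lower in Nrf2-/- cells than in WT cells with SFN, opposite in sign to Mt1 and Slc30a1 in isosmotic cells. In isosmotic cells it passed the test (edgeR adjusted p = 0.0432), but the Nrf2-/- libraries were both at 0, and with a floor of 3 counts per library the WT mean was at least 1.2-fold higher. At 1 h the log2 fold change was -2.72 (SE 0.94, edgeR adjusted p = 0.0413), with 0 and 4 counts against 15 and 16. These 2 calls did not hold in the fit with the replicate number as a block (adjusted p = 0.0541 and 0.0526). The isosmotic call was also lost when any of its 4 libraries was left out, and the 1 h call when either WT library or the Nrf2-/- library at 0 was left out (highest adjusted p = 0.157 and 0.197).

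Per kilobase of exon, Mt1 averaged 9.42 to 38.2 RPKM over the 8 groups and Mt2 0 to 1.21. Mt2 had at most 3.95 counts per 100 counts of Mt1. If only the 156 exon bases of Mt2 that Gm45774 does not cover could give counts, isosmotic DMSO cells would have 4.55 RPKM of Mt2. Mt1 had 35.3, a ratio of 7.76. Reads that also reach into covered bases could be lost too. The Mt2 value would then be higher and the ratio lower, by an amount that was not tested. Per kilobase of all exon bases, Slc30a1 averaged 7.21 RPKM and Mtf1 2.85 in isosmotic DMSO cells. The RPKM of Mt1 depend on the length used. Its annotated exons together have 1246 bases and fill the whole gene span, while the Mt1 transcript compared above has 549 bases. Scaled to that transcript, the RPKM of Mt1 would be higher, and so would its ratio to Mt2 and its difference from Slc30a1. Which transcripts gave the Mt1 counts was not tested.

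Mtf1, the gene of the zinc-sensing regulator, had 28.2 and 22.5 CPM in isosmotic DMSO cells, 31.1 and 32.2 after 1 h of stress, and 59.0 and 59.5 after 6 h. With SFN it had 27.8 and 30.9 CPM, then 32.7 and 34.9, then 55.8 and 57.8. Nrf2-/- cells had 30.5 and 29.4 CPM isosmotically and 27.7 and 37.7 at 1 h. All 4 libraries at 6 h lay above the other 12, which spanned 22.5 to 37.7 CPM.

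Mtf1 rose by a log2 fold change of 1.22 (SE 0.14, edgeR adjusted p = 7.78e-06) from isosmotic medium to 6 h with DMSO and by 0.95 (SE 0.14, adjusted p = 6.95e-05) with SFN. From 1 to 6 h it rose by 0.91 (edgeR adjusted p = 0.000115) with DMSO and by 0.75 (adjusted p = 0.000574) with SFN. These 4 calls held in every alternative setting tried. No call was made with SFN, where the 95% intervals of the log2 fold change were -0.09 to 0.51 isosmotically, -0.21 to 0.40 at 1 h and -0.36 to 0.24 at 6 h, or with genotype, where they were -0.27 to 0.33 isosmotically and -0.35 to 0.26 at 1 h. None of these 5 intervals reached a 2-fold change in either direction. The change at 1 h with DMSO, 0.32, did not pass in all 16 libraries (edgeR adjusted p = 0.185) and passed in the 12 WT libraries (0.34, adjusted p = 0.0202).

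At 6 h of stress in DMSO-treated cells, Mtf1 was therefore at its highest level while Slc30a1 was at an intermediate level. Mt1 was lower in these libraries than before stress, a difference that did not pass in all 16 libraries (edgeR adjusted p = 0.181). Over the 16 libraries, Pearson's r between log2 CPM values was 0.48 for Mt1 and Slc30a1, -0.41 for Mt1 and Mtf1, -0.01 for Mtf1 and Slc30a1, and -0.23 for Mt1 and Mt2. In the 12 WT libraries, r was 0.60 for Mt1 and Slc30a1 and 0.61 for Mt1 and Mt2. The libraries within a group share their treatment, so these values describe the groups and carry no test.

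**Figure D3:**
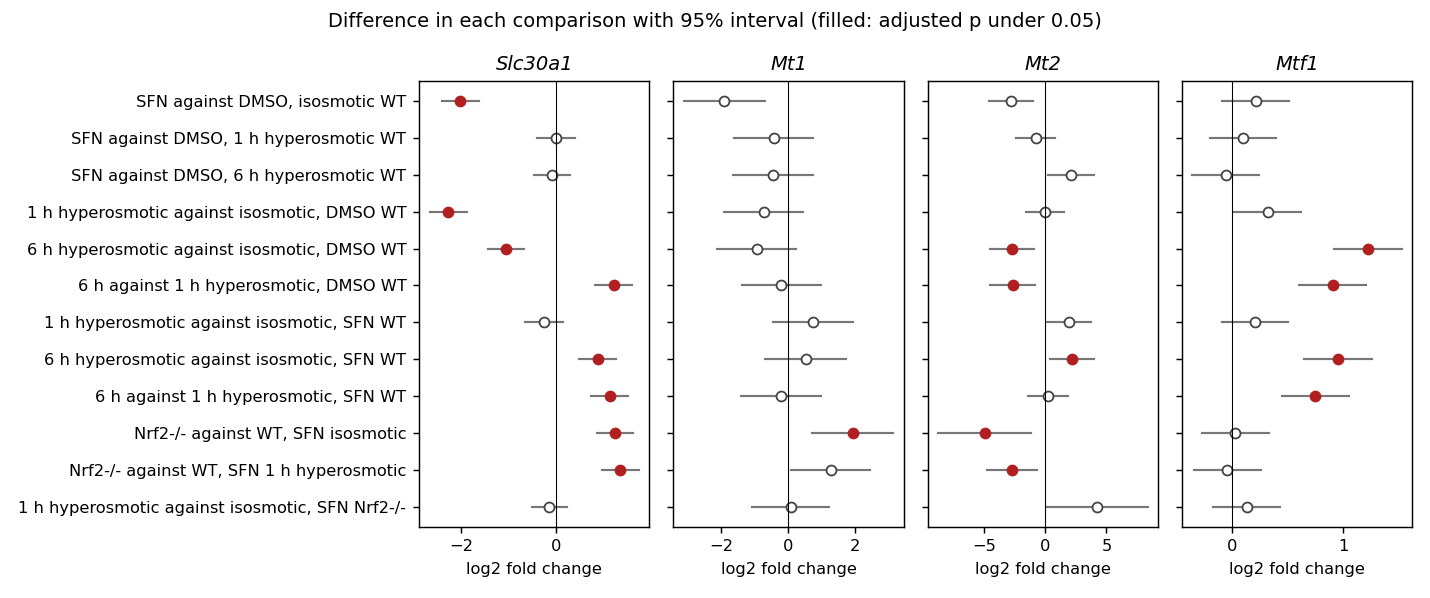
Log2 fold change (x axis, scale set for each gene) of Slc30a1, Mt1, Mt2 and Mtf1 in the 12 pairs of groups (rows), with 95% intervals from the edgeR fit of all 16 libraries, filled where the adjusted p is under 0.05. Slc30a1 is past the threshold in 8 pairs and Mt1 only in isosmotic Nrf2-/- against WT cells. Mtf1 is past it only in the 4 pairs that set 6 h of stress against isosmotic medium or 1 h. The Mt2 values against isosmotic Nrf2-/- cells are fitted from 0 counts and are no measure of size.

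The 3 genes whose log2 CPM followed Slc30a1 most closely among 12290 genes were Klf10 (r = 0.96), Bhlhe40 (0.96) and Klf7 (0.94), all genes of transcription factors. Mtf1 was followed most closely by Tulp4, Spen and Map4k5 (r = 0.99, 0.99 and 0.98). For Mt1 they were Calm2, Psma3 and Dpy30 (r = 0.92, 0.91 and 0.89), whose r in the 12 WT libraries was 0.82, 0.83 and 0.77. For Mt2 they were Arhgef28, Sec14l2 and Enc1 (r = 0.92, 0.89 and 0.89), with 0.78, 0.73 and 0.78 in the WT libraries.

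Other genes of zinc handling are given for comparison with Slc30a1. The exporter family Slc30 had 7 of 9 other members tested, and the importer family Slc39 had 13 of 14. With SFN, 0 of these 20 passed at any stage with edgeR or with DESeq2, where 2.84% of all genes passed with edgeR in isosmotic cells, 0.0923% at 1 h and 0.041% at 6 h, so a count of 0 was near the share over all genes. At an unadjusted p under 0.05 there were 2 of the 20 in isosmotic cells (Slc30a9 and Slc39a14) and 1, Slc30a5, at each of 1 and 6 h. In DMSO-treated cells at 1 h, 2 of the 7 exporters and 1 of the 13 importers passed, all 3 higher, against 7.1% of all genes higher and 4.11% lower. The same genes, Slc30a3, Slc30a10 and Slc39a4, were the ones that passed at 1 h with SFN in WT cells and in Nrf2-/- cells, where 5.94% and 4.36% of all genes were higher. Slc30a3 and Slc30a10 came through the filter on low counts mainly by their 1 h libraries. Their calls at 1 h are therefore read as descriptions only.

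At 6 h, 3 of the 7 exporters were higher and 4 lower in DMSO-treated cells than before stress (median log2 fold change -0.34, against 0.05 over all genes), and 2 were higher and 4 lower with SFN (median -0.44 against 0.09). Of the 13 importers, 3 were higher and 4 lower with DMSO (median 0.07) and 3 higher and 3 lower with SFN (median -0.02). Higher calls made up 23.9% and lower calls 22% of all genes with DMSO, and 24.7% and 22.9% with SFN. Between Nrf2-/- and WT cells with SFN, 1 exporter was higher and 1 lower at either stage, and 1 importer was higher and 5 lower isosmotically and 2 higher and 4 lower at 1 h. Of all genes, 15.7% were higher and 18.4% lower isosmotically, and 15.3% and 16.2% at 1 h. Among 8 genes of copper handling, 0 passed with SFN with edgeR, 2 did in isosmotic cells with DESeq2 and at an unadjusted p under 0.05 (Atp7a and Commd1), and 0 did by either measure at 1 or 6 h. With stress 1 of the 8 fell at 1 h in each of the 3 series, against 4.11%, 3.58% and 2.81% of all genes with DMSO, with SFN and in Nrf2-/- cells. In Nrf2-/- against WT cells 3 of the 8 were higher and 1 lower at either stage.

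The largest fitted changes in these lists were of genes with few counts. Slc30a10, an exporter of manganese, had 0 counts in all 6 isosmotic libraries, 50 and 36 at 1 h with DMSO, 22 and 34 with SFN, and 20 and 20 in Nrf2-/- cells, and 2 to 6 in the 6 h libraries. Against a floor of 3 counts per library it was at least 15.1-fold higher at 1 h with DMSO, 10.5-fold with SFN and 6.89-fold in Nrf2-/- cells. Slc30a3, an exporter that loads vesicles, went from 2 and 0 counts to 42 and 48 at 1 h with DMSO, from 0 and 4 to 49 and 49 with SFN, and from 0 and 0 to 13 and 7 in Nrf2-/- cells. Both exporters were near their floor before stress. They came through the filter on low counts mainly by their 1 h libraries. Their higher counts at 1 h are therefore a description only and are not set against the level of Slc30a1.

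Slc39a4, a zinc importer of the plasma membrane, had 17 and 12 counts in isosmotic DMSO cells and 85 and 108 at 1 h (log2 fold change 2.83, edgeR adjusted p = 0.00855). With SFN it had 6 and 35, then 81 and 70 counts. In Nrf2-/- cells it had 0 and 0 counts in isosmotic medium and 67 and 64 at 1 h, which is at least 22.6-fold higher than the floor. Its level at 1 h lay between 1.75 and 2.86 CPM in all 6 libraries of the 3 series. Cox17, a copper chaperone of mitochondria, fell at 1 h by 2.70 on the log2 scale with DMSO (edgeR adjusted p = 4.23e-06), and its log2 fold change was -3.18 with SFN (adjusted p = 2.33e-06) and -2.61 in Nrf2-/- cells (adjusted p = 8.24e-06). It was back at 5.85 to 8.54 CPM at 6 h, close to the 5.64 to 6.98 CPM of isosmotic WT cells.

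Of the other metallothionein genes, Mt3 had 0 to 18 counts and the call at 6 h with DMSO (edgeR adjusted p = 0.0496) rested on 9 and 2 counts against 0 and 0, at least 2.34-fold over the floor. Mt4, the metallothionein of stratified squamous epithelium, had 0 to 11 counts. Mt1 held most of the metallothionein counts in every library.

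**Figure D4:**
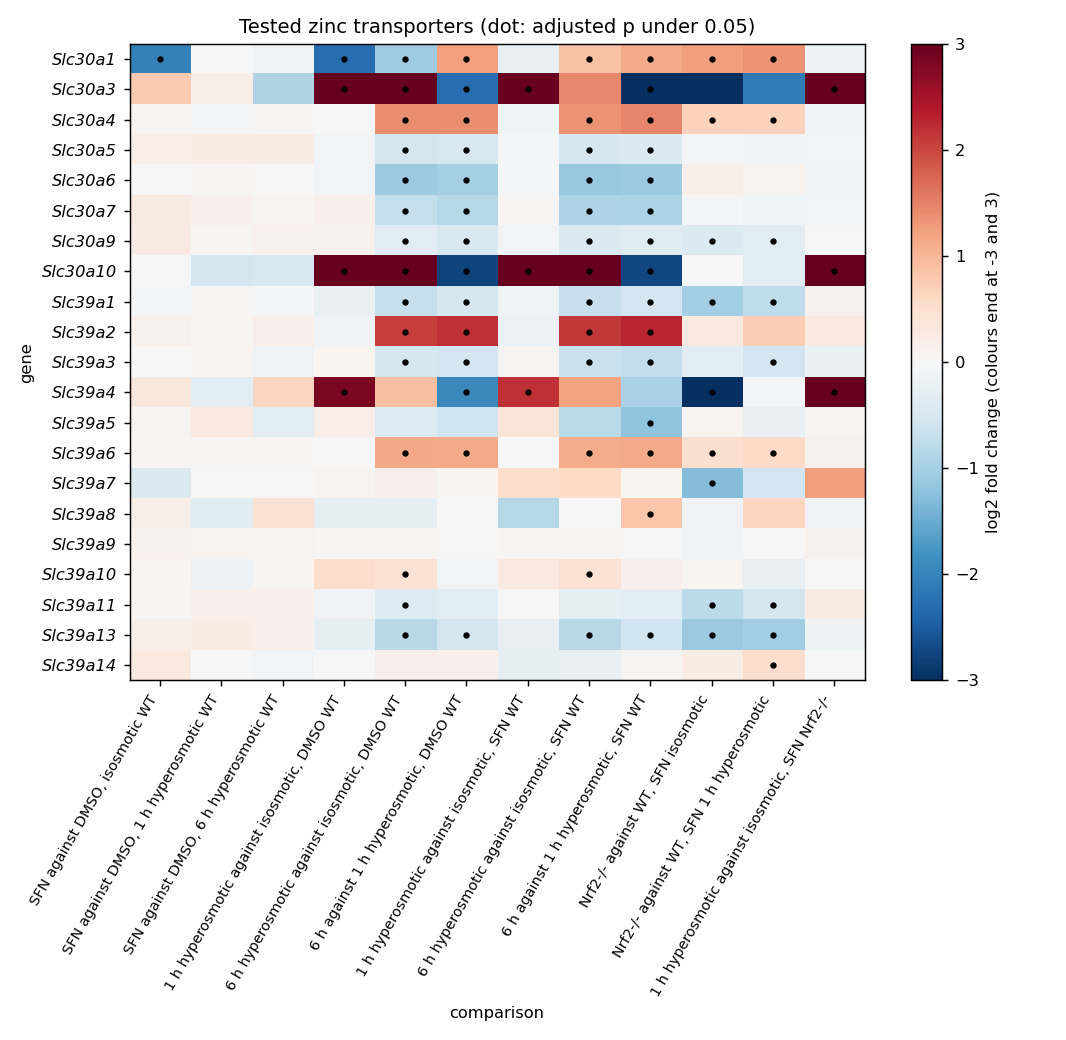
Log2 fold change (colour, ending at -3 and 3) of the 21 tested zinc transporter genes of the Slc30 and Slc39 families (rows) in the 12 pairs of groups (columns), with a dot where the edgeR adjusted p is under 0.05. In the first 3 columns, SFN against DMSO, the single dot is that of Slc30a1 in isosmotic cells; colours at the end of the scale for Slc30a3, Slc30a10 and Slc39a4 come from groups at or near 0 counts and are no measure of size.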

How the data were processed

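The authors aligned RNA-seq reads to mm10 and deposited raw counts per gene for each library, made with featureCounts after sorting with Samtools. The study's methods name Hisat2 as the RNA aligner, while the submitters' processing notes list Bowtie2. Versions, annotation and strand setting are not given in the sources used here. There were 2 blank lines in 1 file and 3 in another, without counts. Among counts of 1 to 10, 58.0% to 68.5% were even, so single counts may not be independent fragments, and intervals cover counting error only in part.

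Counts were filtered with filterByExpr, scaled with TMM and tested with edgeR 4.0.16 in R 4.3.3 (robust quasi-likelihood F-test, 1 coefficient per group). CPM use TMM-scaled totals, RPKM the GENCODE M21 exon lengths, and correlations log2 CPM with a prior count of 2 over genes averaging at least 50 counts. SE is the log2 fold change over the square root of F. A floor is 3 counts. With 2 libraries against 2, an exact permutation test cannot go below 0.333, so none is given. Alternatives were DESeq2 1.42.0, RLE factors, other filters, subsets of libraries and a replicate block. On simulated data for the SFN comparison in isosmotic cells, 183 of 200 changed genes were recovered (91.5%), with 8 false calls among 18266 genes. The changed genes had at least 50 expected counts, and each gene had the same spread in all libraries, taken from genes of similar level. The simulation therefore says nothing about counts as low as those of Mt2, the spread of Mt1 or the divergent Nrf2-/- pair.

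Replicates are biological per the study's methods. Same-numbered libraries of compared groups correlated by -0.20 to 0.13 in their deviations from the group means, so the numbers were not used as pairs. Promoters are from RefSeq (GRCm38.p6), where all 4 genes matched. The members and lists were chosen with earlier results of these data known. Named from the lists were the 5 called genes with the largest fold changes, and per member the 3 genes with the highest correlation.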

Additional observations from a re-analysis of the deposited data

Results flagged for a closer look

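The SFN difference of Slc30a1 in WT cells changed between isosmotic and stressed cells, by the interaction test of edgeR over all 16 libraries. The interaction was 2.02 on the log2 scale (SE 0.26, edgeR adjusted p = 0.0013) for 1 h of hyperosmotic stress against isosmotic medium. For 6 h it was 1.93 (SE 0.25, edgeR adjusted p = 0.00113). SFN went with a log2 difference of -2.03 in isosmotic cells, -0.01 at 1 h and -0.09 at 6 h. Both interactions share the isosmotic libraries, so they are not independent of each other.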

How the results depend on the processing

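Of the 4 genes, 1 passed with SFN in isosmotic cells in the fit of all libraries, and 3 passed without a filter on low counts, in the 12 WT libraries, in the compared libraries only, without both Nrf2-/- 1 h libraries (an alternative chosen after seeing the data) and with DESeq2. In the first 4 of these settings, the interaction of SFN with 6 h also went from 1 to 3, that with 1 h from 1 to 2, and 1 h of stress with SFN from 0 to 1, while 1 h of stress with DMSO went from 1 to 2 (no filter, compared libraries only) or 3 (the others). SFN after 1 h of stress went from 0 to 1 in the compared libraries only. Genotype at 1 h went from 2 to 1 with at least 10 counts in every library (which drops Mt2), in the compared libraries only and with a replicate block. The replicate block also cost Mt2 its calls between genotypes in isosmotic cells (edgeR adjusted p = 0.0541) and for 6 h with SFN (adjusted p = 0.067) and changed no other call of the 4 genes. Same-numbered libraries did not pair (correlations -0.20 to 0.13). The file numbers of the isosmotic SFN libraries differ from the replicate numbers in their titles, and the lowest correlations involve that group. With its numbers crossed, chosen after seeing the data, the block called 432 of all genes for SFN in isosmotic cells, against 440 uncrossed and 555 without a block.

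Leaving out 1 library gave 1 to 2 genes for 1 h of stress in Nrf2-/- cells (0 with all libraries), 1 for its interaction with genotype (0), 1 for genotype at 1 h (2) and 1 for genotype in isosmotic cells (3). The directions that turned were all of differences that did not pass with all libraries, and are given as the range of log2 fold changes over the libraries left out. For Mt1 they were the 1 h change in Nrf2-/- cells (-1.48 to 0.809), its interaction with genotype (-2.22 to 0.059) and genotype at 1 h (-0.26 to 2.01). Their extremes came from leaving out 1 of the Nrf2-/- 1 h libraries, and the first also turned without Nrf2-/- isosmotic replicate 1 (-0.23). For Mt2 they were 1 h with DMSO (-0.22 to 0.11), 6 against 1 h with SFN (-0.58 to 0.71), the 1 h change in Nrf2-/- cells (0 to 5.21) and its interaction (-1.96 to 3.25). For Mtf1 they were the 1 h change in Nrf2-/- cells (-0.11 to 0.33), its interaction (-0.31 to 0.13), the interaction of SFN with 1 h (-0.29 to 0.037), and genotype at 1 h (-0.29 to 0.17, and 0.0018 with RLE factors and 0.0017 with DESeq2) and in isosmotic cells (-0.053 to 0.10). For Slc30a1 they were the 1 h change in Nrf2-/- cells (-0.41 to 0.078), its interaction (-0.15 to 0.34), SFN at 1 h (-0.21 to 0.24, and 8.75e-05 with a replicate block) and SFN at 6 h (-0.22 to 0.015). The cause was not tested.

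Over all genes and with no single library left out, calls ranged from 432 to 2875 for SFN in isosmotic cells (555 with all libraries and settings as reported), 13 to 809 at 1 h (18) and 2 to 106 at 6 h (8). They ranged from 654 to 4334 for 1 h of stress with DMSO (2186), 535 to 3466 with SFN (1857) and 7 to 2130 in Nrf2-/- cells (1399), from 1651 to 6641 for genotype at 1 h (6154), and from 71 to 585 (109), 119 to 803 (148) and 0 to 160 (24) for the interactions of SFN with 1 h, of SFN with 6 h and of genotype with 1 h. Leaving out 1 library gave 171 to 302, 6 to 9 and 1 to 2 calls for SFN, 948 to 1264, 709 to 995 and 538 to 5079 for 1 h of stress, 3946 to 8917 for genotype at 1 h, and 48 to 70, 69 to 93 and 8 to 2072 for the interactions, in the same order. The highest of these for 1 h of stress in Nrf2-/- cells, for genotype at 1 h and for the last interaction came without Nrf2-/- 1 h replicate 1. Of the alternative values of single genes, 657 kept their direction and side of the threshold, 45 came to pass and 24 no longer passed. Another 23 turned direction, whatever their side of the threshold. Of the alternative counts of members that passed, 158 stayed equal or close and 34 moved. Mt2 had only 0 to 34 counts per library, and the reason for these low counts was not tested.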
